A study of Mus musculus with 16 samples.

Results

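The junction genes of the outer blood-retina barrier described here are Tjp1, Ocln, Cldn1, Cldn2, Cldn3, Cldn19, Cdh1, Cdh2 and Cdh3. They were taken as a list of 9 named genes, by name and not by a cut on their values. The list was chosen with earlier results of these data known. Every probe annotated to their RefSeq transcripts was used. That gave 12 probes for 9 genes, of 55681 probes and 19026 genes tested in all. Expression was measured on 16 single-colour arrays of RNA from retina and retinal pigment epithelium (RPE) in the same sample. The 4 groups, of 4 arrays each, were nm3342 mutants at 1 year, wild types at 1 year, nm3342 mutants at 1 month and wild types at 1 month. All 16 samples are labelled as male mice of strain background C57Bl/6J, and the labels do not name the gene changed in nm3342 or the number of alleles carried. The series presents nm3342 as a mouse with serous retinal detachment, in which fluid collects between the retina and the RPE.

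The RPE is a single sheet of pigmented epithelial cells that seals the retina from the blood vessels of the choroid. Its seal is the tight junction, in which claudins and occludin span the gap between cells and are tied to the cytoskeleton by scaffold proteins such as ZO-1. Adherens junctions lie beside it, where cadherins hold neighbouring cells together through catenins, and cadherins of the neural retina do the same at its outer limiting membrane. Several of these genes are also used by corneal, conjunctival and glandular epithelia and by vascular cells, and each sample held several tissues. In such bulk samples fewer cells of a type and less RNA per cell cannot be told apart.

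Of each array, 82.1% to 89.6% of the spots were well above background, and arrays of the same group correlated at r of 0.98 to 0.9934 over all genes. The number of arrays limits the precision of each value. The RPE was represented: 10 of 11 RPE markers were well above background on all 16 arrays, among them the retinoid isomerase gene Rpe65, while the channel gene Best1 was so on 1 array and was not tested. The mean level of the RPE markers ranged from 2.66 to 3.08 in mutants and from 2.80 to 3.25 in wild types at 1 year, and from 2.88 to 3.28 in mutants and from 2.32 to 2.89 in wild types at 1 month. At 1 month 4 of 10 RPE markers and 5 of 9 melanin synthesis genes were called higher in the mutant (adjusted p under 0.05, limma), against 2.02% of all genes. The changes ran from -0.18 to 0.80 over the RPE markers, with a median of 0.40. Over the melanin synthesis genes they ran from 0.22 to 1.07, with a median of 0.52. On 3 mutant arrays (replicate 1 at 1 year, and replicates 2 and 3 at 1 month) the X- and Y-linked genes Xist and Ddx3y had a female pattern against the label. The wild-type arrays all had a male pattern. Without these 3 arrays 0 of 10 RPE markers and 1 of 9 melanin synthesis genes were called at 1 month, and their medians were 0.46 and 0.68.

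All 9 genes were measurable: 11 of the 12 probes were well above background on all 16 arrays, and the dimmer Cldn2 probe on 13. Levels below are log2 fluorescence relative to the 75th percentile of the array, which is 0, and changes are differences on that log2 scale ± the standard error of the limma model. Of the 9 genes, only the cadherin genes Cdh3 and Cdh2 passed the test in any comparison. At 1 year no member was called between genotypes, where 0.857% of all genes were. At an unadjusted p under 0.05 there were 2 members at 1 year, Cldn2 and Cdh2, against 11.4% of all genes. At 1 month 1 member, Cdh3, was higher in the mutant and none was lower. Over all genes tested 2.71% were called in that comparison and 2.02% were called higher.

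With age no member was called in the mutant, where 6.69% of all genes were. At an unadjusted p under 0.05 there were 4 members in the mutant, Ocln, Cldn3, Cdh1 and Cdh3, all higher at 1 year, against 21.0% of all genes. In the wild type 2 members were called between 1 year and 1 month: Cdh3 was higher and Cdh2 lower at 1 year. In that comparison 12.4% of all genes were called, 7.31% higher and 5.05% lower. No member was called for a difference between the genotype effects at 1 year and at 1 month, where 0.420% of all genes were. Unadjusted, 2 members, Cdh2 and Cdh3, were under 0.05 in this difference, against 10.8% of all genes.

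The share of members whose groups did not overlap can be read the same way. Mutant and wild-type arrays did not overlap in 0 of 9 members at 1 year, against 7.83% of all genes, and in 2 of 9 at 1 month, Ocln and Cdh3, against 8.53%. The arrays of the 2 ages did not overlap in 3 of 9 members in the mutant, Cldn3, Cdh1 and Cdh3, against 13.8% of all genes, and in 2 of 9 in the wild type, Cdh2 and Cdh3, against 18.9%. The median change of the 9 members was 0.05 between genotypes at 1 year and -0.02 at 1 month, against -0.01 and 0.02 over all genes. With age it was 0.09 in the mutant and 0.21 in the wild type, against -0.05 and -0.03 over all genes.

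**Figure D1:**
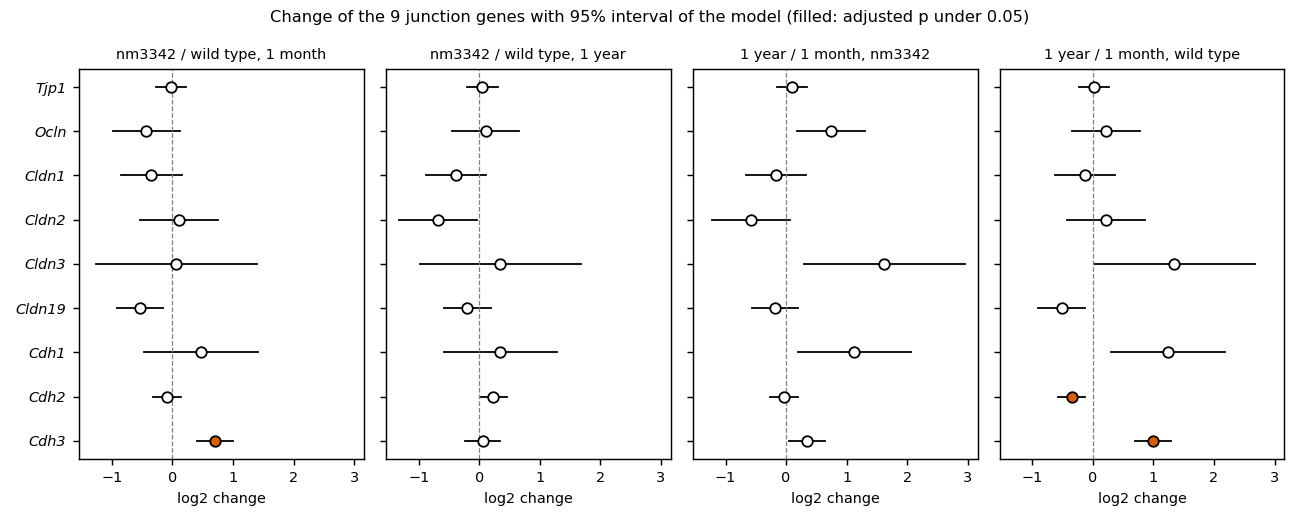
Log2 change of the 9 junction genes in 4 comparisons, mutant (nm3342) over wild type at each age and 1 year over 1 month in each genotype; points are the limma estimates, lines their 95% intervals, and filled points have an adjusted p under 0.05. Only Cdh3 at 1 month and Cdh3 and Cdh2 with age in the wild type are filled, and the intervals of Cldn3 and Cdh1 are the widest.

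Among the cadherins, Cdh3 was higher in mutants than in wild types at 1 month, and higher at 1 year than at 1 month in wild types. It encodes P-cadherin, an adhesion protein of the RPE, and in humans its loss causes juvenile macular dystrophy with sparse hair. At 1 year its level was -1.24, -1.33, -1.27 and -1.09 in the 4 mutants, against -0.89, -1.55, -1.44 and -1.26 in the 4 wild types. The wild types spread on both sides of the mutants, and the change was 0.05 ± 0.14 (adjusted p = 0.922, limma with Benjamini-Hochberg adjustment, n = 4 per group). At 1 month it was -1.46, -1.80, -1.63 and -1.42 in the mutants, against -2.23, -2.30, -2.06 and -2.52 in the wild types. The groups did not overlap, the lowest mutant lying above the highest wild type. Cdh3 rose by 0.70 ± 0.14 in the mutant at 1 month (1.63-fold, adjusted p = 0.0152, limma).

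With age Cdh3 changed by 0.345 ± 0.14 in the mutant (adjusted p = 0.168), where the arrays of the 2 ages did not overlap. In the wild type all 4 arrays at 1 year lay above all 4 at 1 month, and Cdh3 rose by 0.995 ± 0.14 with age (1.99-fold, adjusted p = 0.000254). The mean was -1.23 ± 0.10 in mutants and -1.28 ± 0.29 in wild types at 1 year, and -1.58 ± 0.18 in mutants and -2.28 ± 0.19 in wild types at 1 month (SD, n = 4). In order of level the groups ran mutant at 1 year, wild type at 1 year, mutant at 1 month and wild type at 1 month, and of these neighbours the last pair alone did not overlap.

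The difference between the genotype effects of Cdh3 at 1 year and at 1 month was -0.65 ± 0.20 (unadjusted p = 0.00479, adjusted p = 0.183). The called rises of Cdh3, with genotype at 1 month and with age in the wild type, share the same 4 wild-type arrays at 1 month as their comparison group. The 1-month rise was 0.84 without the 3 arrays of female pattern (adjusted p = 0.0586) and 0.785 with that pattern as a covariate (adjusted p = 0.0235). It was 0.57 with the mean of the RPE and melanin markers as a covariate (adjusted p = 0.334), lists of which 4 of 10 and 5 of 9 genes were themselves called higher in the mutant at that age. Without mutant 1-month replicate 1, the array with the highest RPE marker mean, it was 0.66 (adjusted p = 0.0545). On each slide alone the change kept its sign, with 0.66 for slide 1 and 0.75 for slide 2, without passing the test. The rise with age in the wild type had an adjusted p of 0.00118 without those 3 arrays, and was 0.86 with the RPE and melanin covariate (adjusted p = 0.026).

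Cdh2 encodes N-cadherin, which in the eye is made by neurons and Müller glia as well as by RPE cells. In the mutant its level was 3.73, 3.47, 3.82 and 3.65 at 1 year, against 3.72, 3.85, 3.80 and 3.42 at 1 month, a change of -0.03 ± 0.11 (adjusted p = 0.896). The mutants of the 2 ages overlapped across nearly their whole range. In the wild type it was 3.26, 3.46, 3.52 and 3.49 at 1 year, against 3.69, 3.82, 3.73 and 3.91 at 1 month. Here the ages did not overlap. Cdh2 fell by 0.35 ± 0.11 with age in the wild type (adjusted p = 0.0418, limma with Benjamini-Hochberg adjustment), which is a level at 1 year of 0.783 times that at 1 month. Its other probe gave -0.37 ± 0.11 (adjusted p = 0.0725 over all probes). Under that same adjustment over all probes the probe used for the gene had an adjusted p of 0.08 (limma).

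Between genotypes Cdh2 differed by 0.23 ± 0.11 at 1 year (unadjusted p = 0.0449, adjusted p = 0.423) and by -0.09 ± 0.11 at 1 month (adjusted p = 0.752). The wild-type fall lost its call in 17 of 25 alternative settings, with adjusted p from 0.0162 to 0.539 over all 25, and its size ranged from -0.45 to -0.26. Among them, it was -0.30 with each array scaled to its median (adjusted p = 0.314) and -0.26 with the epithelial marker mean as a covariate (adjusted p = 0.164), and without the 3 arrays of female pattern its adjusted p was 0.0598.

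**Figure D2:**
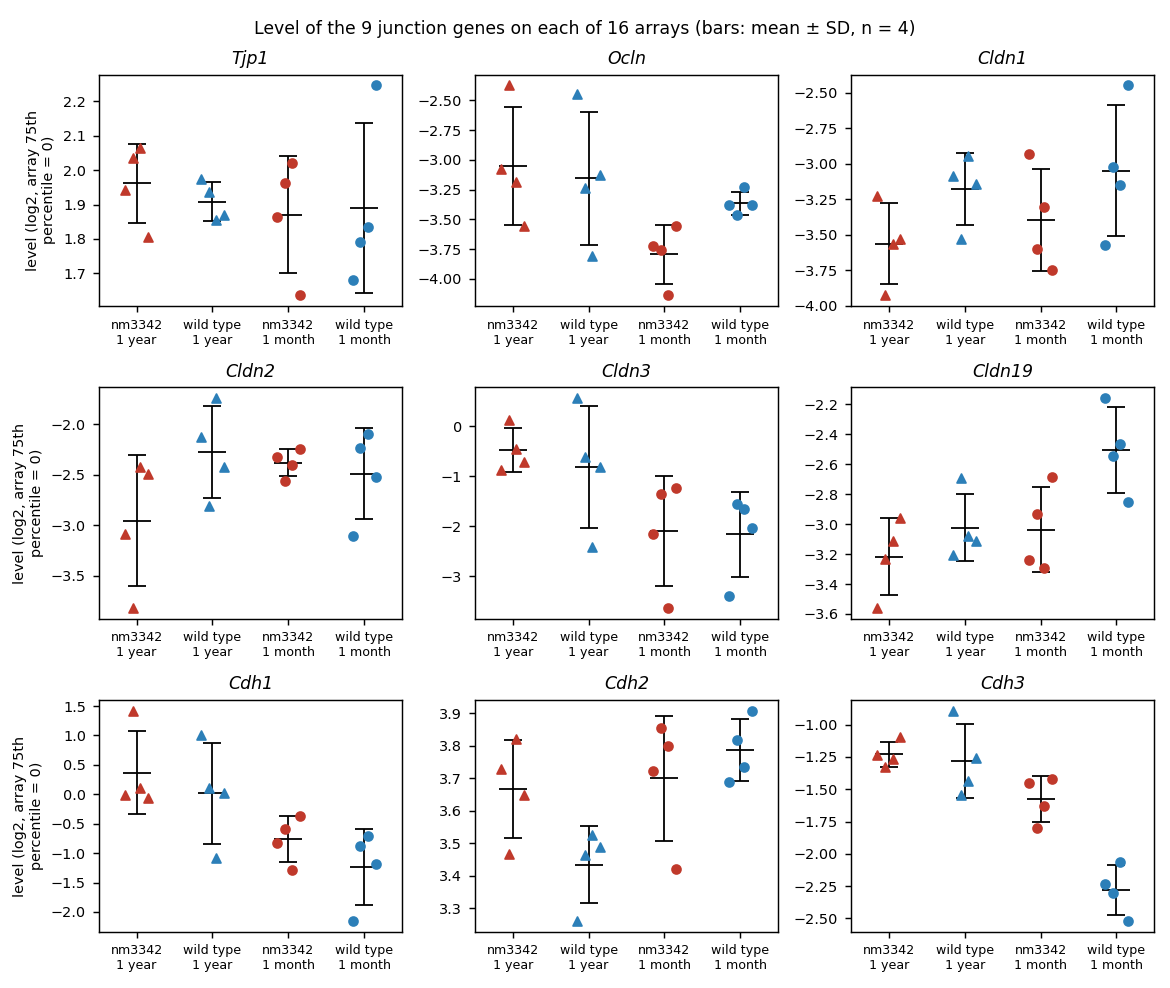
Level of each junction gene on every array (log2, the array's 75th percentile set to 0) for nm3342 (red) and wild type (blue) at 1 year (triangles) and 1 month (circles); bars are the mean and SD of 4 arrays, and each panel has its own axis. In the Cdh3 panel the 4 wild types at 1 month, from -2.52 to -2.06, lie below every other array, while Cdh1 and Cldn3 spread widely within groups.

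Cdh1 encodes E-cadherin, the cadherin of most epithelia. It was printed on the array as 10 spots, of which 8 to 10 were used on each array, and their SD within an array was 0.036 to 0.122. At 1 year its level was -0.004, 1.42, 0.11 and -0.06 in the mutants, against 1.01, 0.11, -1.09 and 0.02 in the wild types. At 1 month it was -0.83, -0.59, -1.28 and -0.36 in the mutants, against -2.16, -0.88, -0.71 and -1.18 in the wild types. Genotypes overlapped at both ages, and single arrays stood well away from their group: mutant 1-year replicate 2 was high, and wild-type 1-year replicate 3 and wild-type 1-month replicate 1 were low.

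With age Cdh1 changed by 1.13 ± 0.44 in the mutant (2.19-fold, adjusted p = 0.155) and by 1.25 ± 0.44 in the wild type (2.37-fold, adjusted p = 0.081). Neither passed the test. Without wild-type 1-year replicate 3 the change in the wild type was 1.62 and passed (adjusted p = 0.0232). Between genotypes Cdh1 differed by 0.35 ± 0.44 at 1 year (adjusted p = 0.823) and by 0.47 ± 0.44 at 1 month (adjusted p = 0.67). The 1-year difference was 1.25 within slide 1 but -0.55 within slide 2, and the 1-month difference was 1.04 within slide 1 but -0.11 within slide 2.

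Of the claudins, Cldn3 varied most among the arrays and none was called in any comparison. Cldn3 encodes a sealing claudin found in many simple and glandular epithelia. Its level was -0.88, 0.12, -0.45 and -0.71 in mutants at 1 year, against -2.16, -1.35, -3.65 and -1.24 in mutants at 1 month. All 4 mutants at 1 year lay above all 4 at 1 month, and the change was 1.62 ± 0.62 (3.08-fold, adjusted p = 0.148). In wild types it was 0.57, -0.62, -2.41 and -0.82 at 1 year, against -3.40, -1.56, -1.66 and -2.04 at 1 month. Here the ages overlapped through replicate 3 at 1 year, and the change was 1.34 ± 0.62 (adjusted p = 0.185). Between genotypes Cldn3 differed by 0.34 ± 0.62 at 1 year (adjusted p = 0.882) and by 0.07 ± 0.62 at 1 month (adjusted p = 0.975). Within slide 1 it differed by 1.35 at 1 year and 1.185 at 1 month, but within slide 2 by -0.66 and -1.05. The 95% interval at 1 month ran from -1.26 to 1.40, so a difference within that range could not be told from 0 with 4 arrays a group.

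Ocln encodes occludin, the other strand protein of the tight junction beside the claudins, and followed Cdh1 and Cldn3 from array to array. On its brighter probe the level was -3.08, -2.37, -3.19 and -3.56 in mutants at 1 year, against -3.72, -3.76, -4.14 and -3.55 in mutants at 1 month. The ages overlapped narrowly, and the change was 0.74 ± 0.26 (1.68-fold, adjusted p = 0.112). The dimmer probe gave 0.73 ± 0.27. In wild types the brighter probe gave -2.44, -3.23, -3.81 and -3.13 at 1 year, against -3.38, -3.47, -3.23 and -3.38 at 1 month, a change of 0.21 ± 0.26 (adjusted p = 0.646), and the dimmer probe 0.82 ± 0.27 (adjusted p = 0.0977 over all probes). The probes also disagreed at 1 month between genotypes. There the brighter one gave -0.43 ± 0.26 with no overlap between the groups (adjusted p = 0.47), and the dimmer one 0.21 ± 0.27. At 1 year the genotypes differed by 0.105 ± 0.26 on the brighter probe (adjusted p = 0.92) and by 0.12 ± 0.27 on the dimmer. On the brighter probe the 1-year difference was 0.74 within slide 1 but -0.53 within slide 2. The 1-month difference was -0.23 within slide 1 and -0.625 within slide 2.

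The 250 bases before the annotated start of Cldn3 and before each of 2 annotated starts of Ocln are shown because these tight junction genes moved together across arrays. The sequences are from RefSeq (GRCm38.p6), 5′ to 3′ on the strand of the gene, for Cldn3 at chr5:134985964-134986213 on the plus strand and for Ocln at chr13:100552719-100552968 (start 1) and chr13:100552499-100552748 (start 2) on the minus strand, windows that overlap. Capitals mark CAGGTG.
Cldn3: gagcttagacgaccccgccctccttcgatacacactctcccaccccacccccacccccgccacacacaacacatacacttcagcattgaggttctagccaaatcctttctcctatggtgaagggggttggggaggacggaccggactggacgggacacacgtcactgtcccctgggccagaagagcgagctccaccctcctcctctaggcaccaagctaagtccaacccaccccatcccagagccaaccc
Ocln start 1: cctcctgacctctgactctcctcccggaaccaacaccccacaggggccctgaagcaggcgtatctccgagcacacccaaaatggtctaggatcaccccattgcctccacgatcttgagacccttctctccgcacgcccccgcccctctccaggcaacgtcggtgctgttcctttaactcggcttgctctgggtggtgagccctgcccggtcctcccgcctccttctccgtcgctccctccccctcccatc
Ocln start 2: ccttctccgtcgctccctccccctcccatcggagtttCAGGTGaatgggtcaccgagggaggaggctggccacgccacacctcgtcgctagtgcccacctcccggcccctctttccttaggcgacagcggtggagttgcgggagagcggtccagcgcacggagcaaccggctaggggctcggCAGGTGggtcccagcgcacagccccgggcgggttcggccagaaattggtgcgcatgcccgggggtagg
All 3 windows were searched on both strands for CAGGTG, the E-box bound by the Snai and Zeb repressors of Cdh1, and for the E-boxes CACGTG and CATGTG. In the window of Ocln start 2, CAGGTG occurs at 2 places, beginning at -213 and -68 from that start, and none of the 3 motifs occurs in the window of Ocln start 1 or of Cldn3. Over 32536 promoter windows of the same length, 17.3% hold CAGGTG, 6.0% CACGTG and 12.3% CATGTG. The GC content was 60.8% for Cldn3 and 64.0% and 69.2% for the Ocln windows, against a median of 52.4% over all windows. The promoter set used here held no window for Cdh1 or Cdh3, so neither was searched.

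The array-to-array spread of Cdh1, Cldn3 and Ocln ran alongside the markers of simple and glandular epithelium and of surface epithelium. All 8 markers of simple and glandular epithelium, such as Epcam and the keratin genes Krt8 and Krt18, were measured. Their mean level ranged from -0.14 to 0.39 in mutants and from -1.70 to 0.86 in wild types at 1 year, and from -1.56 to -0.19 in mutants and from -1.81 to -0.83 in wild types at 1 month. The 10 markers of surface epithelium, among them Krt12 of the cornea and Krt5, ranged over more than that: from 1.57 to 2.98 in mutants and from -0.59 to 3.41 in wild types at 1 year, and from -0.32 to 2.26 in mutants and from -0.14 to 1.64 in wild types at 1 month. The arrays at the low end of Cdh1 in their groups, wild-type 1-year replicate 3, mutant 1-month replicate 3 and wild-type 1-month replicate 1, were also at the low end of the simple epithelium mean. The array highest in Cdh1 and Cldn3 among the mutants at 1 year, replicate 2, was highest in both lists.

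A covariate made of the mean of these epithelial markers was chosen after seeing the data. The surface epithelium list itself had a median change with age of 1.08 in the mutant and 1.17 in the wild type. For the simple and glandular list these medians were 0.54 and 1.27. With this covariate, the change of Cldn3 with age was 0.67 in the mutant and 0.31 in the wild type, against 1.62 and 1.34 without it. That of Cdh1 was 0.48 in the mutant and 0.54 in the wild type, and that of Ocln 0.40 and -0.17. None of these passed the test with or without the covariate. Cdh3 kept its calls with it, at 0.66 for the mutant at 1 month (adjusted p = 0.0168) and 0.88 with age in the wild type (adjusted p = 0.00141). The tissue each transcript came from was not tested.

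**Figure D3:**
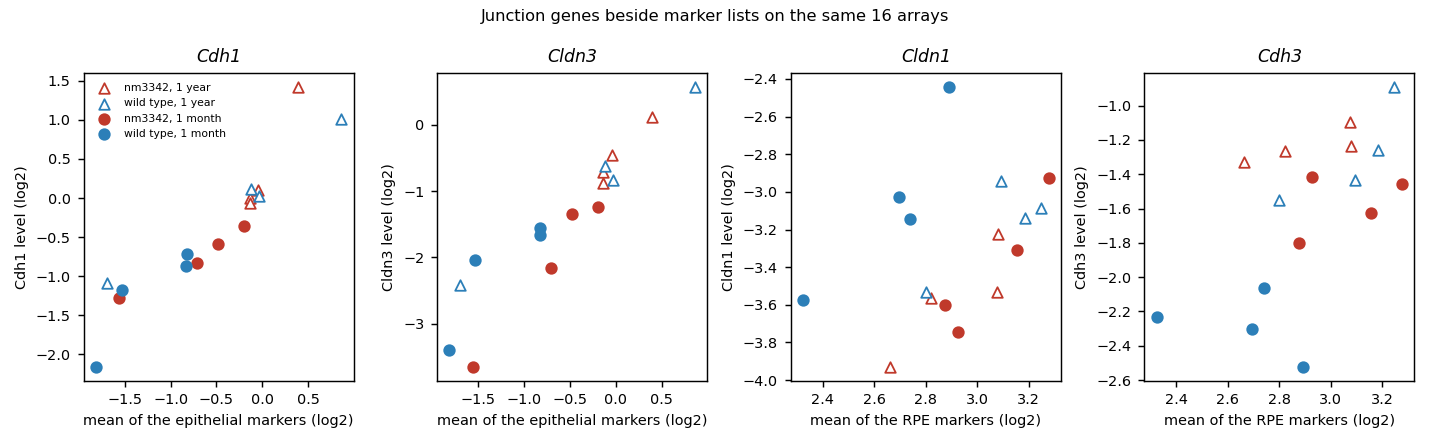
Level of Cdh1 and Cldn3 against the mean of the simple and glandular epithelium markers, and of Cldn1 and Cdh3 against the mean of the RPE markers, 1 point per array (all axes log2, the array's 75th percentile set to 0; open triangles 1 year, filled circles 1 month, red nm3342, blue wild type). Cdh1 and Cldn3 climb with the epithelial mean across all 4 groups. In the Cdh3 panel the 4 wild types at 1 month lie at the bottom. The r of Cdh3 was 0.605 with the RPE mean (0.352 within groups). With the simple and glandular epithelium mean, not drawn for Cdh3, it was 0.709 (0.48 within groups).

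Cldn19 encodes a claudin that is prominent in human RPE and kidney, and its loss in humans causes magnesium wasting with eye defects. At 1 year its level was -3.56, -3.23, -3.12 and -2.96 in mutants, against -3.21, -2.69, -3.08 and -3.11 in wild types, a change of -0.195 ± 0.18 (adjusted p = 0.753). At 1 month it was -3.24, -2.93, -3.29 and -2.68 in mutants, against -2.16, -2.54, -2.47 and -2.85 in wild types. There 3 of 4 mutants lay below every wild type, and the change was -0.53 ± 0.18 (unadjusted p = 0.00972, adjusted p = 0.16). With age Cldn19 changed by -0.18 ± 0.18 in the mutant (adjusted p = 0.609) and by -0.52 ± 0.18 in the wild type (adjusted p = 0.074).

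The wild-type change of Cldn19 lay close to the threshold. It passed in 5 of 25 alternative settings, with quantile normalization (-0.45, adjusted p = 0.0291), with the authors' deposited log2 values (-0.45, adjusted p = 0.0291), with slide as a block (adjusted p = 0.0369), and without wild-type 1-month replicate 4 (-0.63, adjusted p = 0.0386) or wild-type 1-year replicate 2 (-0.63, adjusted p = 0.046). The RPE marker median was -0.04 between genotypes at 1 year and 0.40 at 1 month. With age it was -0.11 in the mutant and 0.47 in the wild type. Its sign was opposite to that of Cldn19 in 2 of the 4 comparisons, where it was 0.40 and 0.47. In the other 2, with medians of -0.04 and -0.11, the signs were the same. From array to array Cldn19 fell as the RPE marker mean rose, with r of -0.744 over all arrays and -0.73 within groups. These r values carry no test. With the RPE and melanin marker mean as a covariate Cldn19 was -0.15 at 1 month (adjusted p = 0.855) and -0.12 with age in the wild type (adjusted p = 0.804). In the other 2 comparisons it was larger with that covariate. Cldn19 was then -0.415 between genotypes at 1 year (adjusted p = 0.323) and -0.38 with age in the mutant (adjusted p = 0.213).

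Cldn1 encodes a barrier claudin best known from the epidermis. Its level was -3.22, -3.93, -3.56 and -3.53 in mutants at 1 year, against -3.09, -3.53, -2.94 and -3.14 in wild types. At 1 month it was -2.93, -3.60, -3.31 and -3.75 in mutants, against -3.57, -3.02, -3.15 and -2.44 in wild types. Groups overlapped at both ages, with changes of -0.39 ± 0.23 at 1 year (adjusted p = 0.592) and -0.35 ± 0.23 at 1 month (adjusted p = 0.519). With the mean of the RPE and melanin markers as a covariate the 1-month difference was -1.06 (adjusted p = 0.0205) and the change with age in the wild type -0.88 (adjusted p = 0.0154), against -0.13 ± 0.23 without it. The same covariate gave 0.03 between genotypes at 1 year (adjusted p = 0.945). With age in the mutant it gave 0.21 (adjusted p = 0.43), against -0.17 ± 0.23 without it. Cldn1 and the RPE marker mean had r of 0.387 over all arrays and 0.882 within groups, values that carry no test. The mean of the RPE markers was 3.06 ± 0.19 in mutants and 2.66 ± 0.24 in wild types at 1 month (SD, n = 4).

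Cldn2, on the X chromosome, encodes a claudin that forms pores for cations and water. At 1 year its level on the brighter probe was -3.09, -3.82, -2.43 and -2.49 in mutants, against -2.13, -2.81, -1.74 and -2.42 in wild types. The groups overlapped, and the change was -0.68 ± 0.30 (unadjusted p = 0.0401, adjusted p = 0.405), or -0.64 without the array of female pattern at that age and those at 1 month. At 1 month it was -2.32, -2.56, -2.40 and -2.25 in mutants, a close cluster, against -3.11, -2.23, -2.10 and -2.52 in wild types, a change of 0.10 ± 0.30 (adjusted p = 0.917). The dimmer probe gave -0.31 ± 0.35 at 1 year and 0.06 ± 0.35 at 1 month. With the RPE and melanin marker mean as a covariate the brighter probe gave -0.28 at 1 year (adjusted p = 0.664). At 1 month its sign changed with that covariate, to -0.60 (adjusted p = 0.644).

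Tjp1, which encodes the scaffold protein ZO-1, had the smallest standard error of the tight junction genes, 0.12 in each comparison of a pair of groups. Its level was 1.94, 2.04, 2.06 and 1.81 in mutants at 1 year, against 1.97, 1.94, 1.85 and 1.87 in wild types. At 1 month it was 1.86, 1.96, 2.02 and 1.64 in mutants, against 1.68, 1.79, 1.84 and 2.25 in wild types. All groups overlapped. The 95% interval of the genotype difference ran from -0.20 to 0.30 at 1 year and from -0.27 to 0.23 at 1 month, and that of the age difference from -0.16 to 0.34 in the mutant and from -0.23 to 0.27 in the wild type.

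In order of mean level, each of the members other than Cdh3 and Ocln had groups that overlapped with the next group in the order. For Cdh1 and Cldn3 that order was mutant at 1 year, wild type at 1 year, mutant at 1 month and wild type at 1 month. For Cldn1 it was wild type at 1 month, wild type at 1 year, mutant at 1 month and mutant at 1 year, and for Cldn19 the same. For Tjp1 it was mutant at 1 year, wild type at 1 year, wild type at 1 month and mutant at 1 month, and for Cldn2 wild type at 1 year, mutant at 1 month, wild type at 1 month and mutant at 1 year. For Cdh2 wild types at 1 month were highest and wild types at 1 year lowest. For Ocln only wild types and mutants at 1 month, the lowest groups of its order, did not overlap.

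For each member the 3 genes with the most similar levels were found by Pearson's r over the 16 arrays, among 17822 named genes, as a description. The arrays share groups, slides and tissue content, so these values carry no test. Cdh1 was most like Anxa2 (0.99), S100a11 (0.986) and Niban2 (0.986), of which Anxa2 and S100a11 encode calcium-binding proteins. Cldn3 was most like Acsm1 (0.978), Mpzl2 (0.974), an epithelial adhesion molecule, and Cyp4a12a (0.973). Ocln was most like Bok (0.939), Sox15 (0.932) and Rnf39 (0.923). These values stayed between 0.917 and 0.981 when each group's mean was removed first.

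Cdh3 was most like Poglut3 (0.951), Uap1l1 (0.951) and Man2b2 (0.95), and within groups these were 0.777, 0.843 and 0.776. Cldn1 was most like Cdc14a (0.884), Lrat (0.864), which makes retinyl esters in RPE cells, and Comtd1 (0.858), and within groups Lrat gave 0.943. Cldn2 was most like Bmp2 (0.848), Slc6a13 (0.828) and Crhbp (0.797), and Cldn19 like Klk1b21 (0.968), Tm6sf2 (0.936) and Mc5r (0.932). Cdh2 was most like Ppp1r17 (0.97), Slc2a13 (0.963) and Gucy1a1 (0.953), and Tjp1 like Cux1 (0.916), Hscb (0.913) and Enpp4 (0.909).

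Further genes of the same junctions were called at shares near those of all genes. Over 79 genes tested in 6 lists, 6 were called with age in the mutant (7.59%, against 6.69% of all genes) and 8 in the wild type (10.1%, against 12.4%), and 0 between genotypes at 1 year and 2 at 1 month (2.53%, against 2.71%). Of 16 tight junction plaque and membrane partners, 2 rose and 2 fell with age in the mutant, and 3 rose and none fell in the wild type. Marveld3, a strand protein related to occludin, rose by 0.57 ± 0.11 in the mutant (adjusted p = 0.00492) and by 0.70 ± 0.11 in the wild type (adjusted p = 0.000564). Lsr, which marks the corners where 3 cells meet, rose by 0.89 ± 0.24 in the mutant (adjusted p = 0.0356) and by 0.83 ± 0.24 in the wild type (adjusted p = 0.0328). Marveld2, which encodes tricellulin at the same corners, rose by 0.745 ± 0.23 in the wild type (adjusted p = 0.0443).

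In the mutant the adhesion molecule gene Jam2 fell by 0.38 ± 0.10 with age (adjusted p = 0.0425) and Ybx3, a transcription regulator that binds ZO-1, by 0.485 ± 0.13 (adjusted p = 0.0401). Tjp3, which encodes the scaffold protein ZO-3, was 1.27 with age in the mutant (adjusted p = 0.0968) and 0.94 in the wild type (adjusted p = 0.173). At 1 month 1 of the 16 rose in the mutant, the scaffold gene Magi3 by 0.38 ± 0.09 (adjusted p = 0.0336). The median of these 16 genes was 0.12 between genotypes at 1 month, 0.11 with age in the mutant and 0.17 with age in the wild type.

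Of 17 other claudins tested, 1 was called: Cldn22 rose by 0.53 ± 0.13 in the mutant at 1 month (adjusted p = 0.0476). Cldn5, the claudin of the inner barrier at retinal vessels, was 0.25 at 1 year and 0.20 at 1 month between genotypes, and Cldn4 was 0.09 at 1 year and -0.03 at 1 month. Of 12 catenins and nectins, Nectin1 fell by 0.37 ± 0.09 with age in the mutant (adjusted p = 0.0251) and the neural catenin gene Ctnnd2 by 0.50 ± 0.10 with age in the wild type (adjusted p = 0.0042). Ctnna1 was 0.39 with age in the wild type (adjusted p = 0.0596) and Ctnnb1 0.08. None of 15 other cadherins was called. Their median was -0.10 with age in the mutant and -0.24 in the wild type, and Cdh4 was -0.27 in the mutant and -0.26 in the wild type. The endothelial Cdh5 was -0.25 with age in the mutant and 0.19 in the wild type.

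Of 12 polarity genes, which set the apical side of an epithelial cell, Crb3 rose by 0.83 ± 0.21 with age in the mutant (adjusted p = 0.0315). In the wild type Mpp5, whose product Pals1 binds Crumbs proteins, rose by 0.34 ± 0.10 (adjusted p = 0.0372) and Pard6a fell by 0.26 ± 0.07 (adjusted p = 0.0329). With age Pard3 was 0.23 in the mutant and 0.24 in the wild type, and Prkci was 0.24 in the mutant and 0.04 in the wild type. Of 7 cadherin repressors and epithelial regulators, none was called in the mutant, where Snai1 was 0.28 with age and Snai2 0.71 (adjusted p = 0.27). In the wild type Snai1 rose by 0.72 ± 0.12 (adjusted p = 0.00122) and Twist1 by 0.97 ± 0.17 (adjusted p = 0.00179) with age. Both encode repressors of Cdh1. None of the genes in these 6 lists was called between genotypes at 1 year or for the difference between the genotype effects.

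Without the 3 arrays of female pattern, which also leaves fewer arrays to estimate the spread, 1 of the 6 calls with age in the mutant held, that of Marveld3 (0.64, adjusted p = 0.049). The other 5 kept their sign without passing: Lsr was 0.88 (adjusted p = 0.267), Crb3 0.785 (adjusted p = 0.318), Nectin1 -0.29 (adjusted p = 0.399), Jam2 -0.30 (adjusted p = 0.451) and Ybx3 -0.38 (adjusted p = 0.459). Of the 8 calls in the wild type 4 held, those of Marveld3, Snai1, Twist1 and Ctnnd2, while Lsr, Marveld2, Mpp5 and Pard6a had adjusted p from 0.056 to 0.0832. Neither 1-month call held: Cldn22 was 0.68 (adjusted p = 0.0876) and Magi3 0.385 (adjusted p = 0.242).

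**Figure D4:**
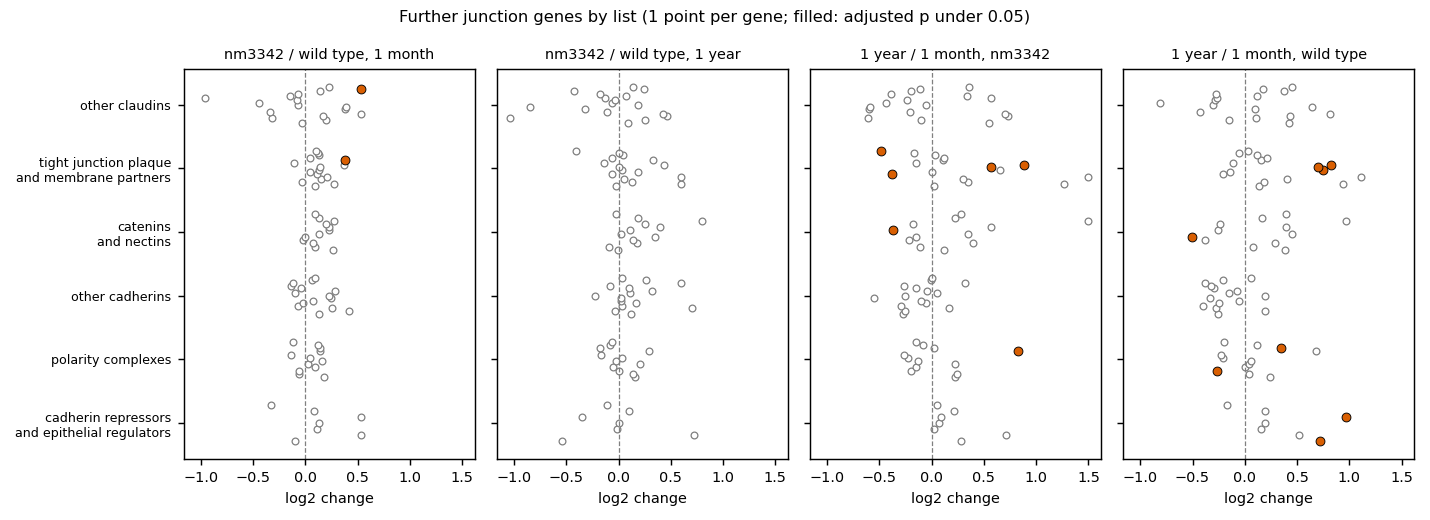
Log2 change of the further junction genes in 6 lists, 1 point per gene, for mutant (nm3342) over wild type at each age and 1 year over 1 month in each genotype; filled points have an adjusted p under 0.05. There are 6 filled points in the mutant and 8 in the wild type age panel, and 0 between genotypes at 1 year and 2 at 1 month.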

How the data were processed

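Arrays of 4 groups of 4 samples were compared. The protocol gives 4 mice per time point and RNA integrity numbers of at least 8. Spot intensity in the scanner files was background-subtracted by the authors with Agilent Feature Extraction 11.0.1.1 (file headers and submitters' processing notes). A deposited matrix of log2 values, whose normalization is not given in the sources used here but which looks quantile normalized from its values, served as an alternative. The probe design refers to mm9, per the file headers.

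From the scanner files, processed intensity was log2 transformed and the array's 75th percentile subtracted, outlier spots (93 to 136 per array) were left out, and spots of a probe were averaged. Probes were named through their RefSeq accessions (RefSeq annotation of GRCm38.p6, used for names and promoter windows), which matched 27229 of 55681 probes. A probe was kept where at least 4 of 16 arrays had it well above background, and the probe with the highest mean stood for its gene. One limma 3.58.1 model (R 4.3.3, data.table version 1.17.8) with 4 group means was fitted to 19026 genes, and p-values are two-sided and Benjamini-Hochberg adjusted over all of them at a threshold of 0.05. A second fit covered all 49241 probes kept. The procedure was tested on simulated data first.

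The members and the lists were chosen with earlier results of these data known. The text names all members, the first 2 genes of each further junction list, up to 4 called genes per list and comparison, and the 3 genes most like each member. One gene that this rule names is not reported here. Alternatives were quantile normalization, the deposited log2 values, the array median as scale, other filters on dim probes, the mean of all probes, slide, row, replicate number, female or male pattern and RPE marker content as terms, single slides, fewer groups or arrays. Chosen after seeing the data were normexp on the median signal (offset 50), as the files used here have no mean signal column, and an epithelial marker covariate. The arrays lay on 2 slides with 2 arrays of every group each. Most mutant arrays lay in row 2 of their slide and most wild-type arrays in row 1. On slide 2 all mutants lay in row 2 and all wild types in row 1, so genotype and row cannot be told apart there. Same-numbered arrays of different groups had deviations correlated from -0.535 to 0.173, so the numbers were not taken as pairs.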

Additional observations from a re-analysis of the deposited data

Results flagged for a closer look

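In 1 of 36 sets of 4 arrays, 9 genes in 4 groups, a single array stood apart. Cdh1 in the mutants at 1 year was 1.42 on replicate 2, while the nearest other array was at 0.11 and the lowest at -0.06. The gap was 0.888 of the whole range, above the critical value of Dixon's test for 4 samples at the 95% level. Chance gives such a gap in about 1 in 20 sets. Of the 10 spots of the probe, 8 entered the value on that array, with an SD of 0.036 between them, and the same array was highest in its group for Cldn3, for Ocln and for both epithelial marker means.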

How the results depend on the processing

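Over 1188 recomputed values, 1140 stayed on their side of the threshold and kept their direction or shifted by less than the SD within groups. The latter include uncalled values close to 0 that changed sign. Another 25 lost a call, 8 gained one, 15 uncalled values changed sign by a larger shift and 0 reversed a called sign. The single 1-month call, Cdh3, was absent (0 members called) with normexp, with only the groups compared, without the 3 arrays of female pattern, on slide 1 alone and on slide 2 alone, and 0 to 1 members were called when 1 array was left out. It was also absent with the RPE and melanin covariate, where the 1 member called was Cldn1. With age in the wild type, against 2 members as reported, 1 was called with normexp, with the array median as scale, with the replicate block, with only the groups compared, without the 3 arrays, on slide 2 alone and with the epithelial covariate, 0 on slide 1 alone, and 1 to 3 when 1 array was left out. The count stayed at 2 with slide as a block and with the RPE and melanin covariate, but Cdh2 was replaced by Cldn19 and by Cldn1. The replicate block left the Cdh3 calls in place (adjusted p = 0.0225 at 1 month and 0.000606 with age in the wild type), ended that of Cdh2 (adjusted p = 0.0766) and changed no other member's call. The causes were not tested.

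Over all genes the count at 1 month was 516, but 306 with the array median as scale, 311 with the replicate block, 161 with only the groups compared, 133 without the 3 arrays, 244 with the female or male pattern, 69 with the RPE covariate, 1 on slide 1, 17 on slide 2 and 227 to 930 with 1 array left out. At 1 year it was 163, but 82 with the array median, 96 with the block, 86 with only the groups compared, 78 without the 3 arrays, 101 with the RPE covariate, 10 and 12 on single slides and 84 to 308 with 1 array left out. With age in the mutant it was 1273, but 640 with the array median, 840 with only the groups compared, 275 without the 3 arrays, 845 with the epithelial covariate, 37 and 162 on single slides and 784 to 1922 with 1 array left out. With age in the wild type it was 2350, but 1360 with the array median, 760 with the RPE covariate, 188 and 725 on single slides and 1513 to 2184 with 1 array left out. For the difference it was 80, but 21 with the array median, 43 with the block, 12 without the 3 arrays, 1 with the RPE covariate, 1 and 0 on single slides and 33 to 195 with 1 array left out. The share of calls that were higher was 56.2% with age in the mutant, 59.1% in the wild type and 33.8% in the difference, and 80.8%, 77.5% and 52.4% with the array median as scale.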
